A study of Mus musculus with 24 samples.

Results

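Cirbp and Rbm3, the cold-inducible RNA-binding proteins, were followed as messenger RNA in mouse cortex 1 day after a transient stroke. Both were taken by name, as genes known to respond to temperature. The rule used no measured value, but earlier results of these data were known when the genes were chosen. They are 2 of the 14769 genes listed in the series, and both were listed in each of the 4 expression tables. The mice were males of 3 to 4 months, and the strain given for all of them, wild types included, was C57BL/6N-Cdr1asem1Nikr. Every animal underwent tMCAo, in which a filament closes the middle cerebral artery, for 1 h, and tissue was taken after reperfusion of 1 day, so no group was free of surgery. The genotypes were wild type (WT) and knockout of ciRS-7 (KO), the circular RNA transcribed from Cdr1as. Cortex libraries carried the marks CL and PI, which the labels do not spell out and which are used here as given. The 24 libraries formed 4 groups of 6, a CL and a PI group for each genotype, and a CL and a PI library with the same number and genotype came from the same animal. No body or brain temperature was analysed here.

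Cirbp and Rbm3 are small proteins with a single RNA recognition motif followed by a glycine-rich tail. Their transcripts and proteins rise under mild cooling and fall with heat, the opposite of the heat shock proteins. In the brain, Rbm3 is known for keeping synapses able to re-form after cooling. Cirbp is known for binding the transcripts of clock genes inside the cell, and for provoking inflammation through Tlr4 when injured cells release it.

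Cirbp (ENSMUSG00000045193.13) lies on the plus strand of chr10:80165985-80172786 in GRCm38, the build that mm10 denotes, with the annotation of GENCODE M21. It has 7 annotated transcripts, of which 2 are coding, 4 retain an intron and 1 is a target of nonsense-mediated decay. Rbm3 (ENSMUSG00000031167.16) lies on the minus strand of chrX:8138975-8145880 and has 11 transcripts, of which 6 are coding, 2 retain an intron and 2 are targets of nonsense-mediated decay. Retained introns and a decay exon matter for these genes because temperature is known to act on their splicing, and a count per gene does not separate the transcripts. The antisense gene Rbm3os overlaps the 5′ end of Rbm3, and whether the counting used strand is not given in the sources used here.

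The coding sequences of the 2 genes were aligned to see whether reads of one could be counted for the other. They were identical at 330 of 450 aligned bases (73.3%), and the longest run of bases in common was 11. The stretch around that run, bases 160 to 242 of each coding sequence in GENCODE M21, is printed because it holds the longest exact match of the genes, shown in capitals.
Cirbp: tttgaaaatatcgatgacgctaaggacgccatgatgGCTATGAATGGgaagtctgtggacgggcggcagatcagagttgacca
Rbm3: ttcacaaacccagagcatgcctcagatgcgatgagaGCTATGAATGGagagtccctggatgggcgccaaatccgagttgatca
Within this stretch 56 of 83 bases were the same in both genes, so around the run the genes were less alike than over the whole alignment. No window of 31 bases of the reference transcript of Cirbp (1291 windows) occurred in a transcript of another gene. Of the 2762 such windows of Rbm3, 449 (16.3%) also occurred in another gene, 372 of them in the processed pseudogene Rbm3-ps, which was not in the tables. Values of Rbm3 could therefore hold or lack reads shared with its copies, while the reference transcript of Cirbp shared no such window. Other transcripts of the 2 genes and copies outside the annotation were not searched.

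The promoter of Cirbp is printed because the gene is known for a cold response element, TCCCCGCC, to which the factor Sp1 binds. RefSeq gives the gene more than 1 start site. The 250 bases before the most upstream of those in the table, chr10:80167589-80167838 on the plus strand of GRCm38.p6 from RefSeq, hold the element 247 bases before the start, shown in capitals.
Cirbp promoter: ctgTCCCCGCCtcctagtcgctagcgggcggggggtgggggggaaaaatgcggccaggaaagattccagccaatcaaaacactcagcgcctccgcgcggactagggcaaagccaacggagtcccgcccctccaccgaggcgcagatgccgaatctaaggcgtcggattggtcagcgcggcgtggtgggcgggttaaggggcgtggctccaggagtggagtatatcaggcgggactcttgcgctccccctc
TCCCCGCC occurred on either strand in 4.64% of 32851 promoters of the same length. The window also held 3 GC boxes (GGGCGG, in 32.7% of promoters) and 2 CCAAT boxes (CCAAT, in 33.8%). Neither the heat shock unit GAANNTTC (in 6.69% of promoters) nor the E-box CACGTG (in 6.02%), the letters bound by clock factors, was found in these 250 bases. The window of the other Cirbp start site in the table, chr10:80167921-80168170, held 4 GC boxes and neither TCCCCGCC nor CCAAT. These matches describe the letters only. Rbm3 was not matched in the promoter table.

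The level of each gene was given as log2 CPM, the log2 of a gene's read count scaled to a common library total. For every gene and group of 6, the 2 lowest values were tied and the 2 highest were tied, at the quartiles of the group. Animals therefore differed by more than the deposited values show, and counts and differences per animal below are of deposited values: where a value is tied, the animal's own difference is not known. Means are of the 4 values per group that could be solved back. Standard errors (SE) use the same 4 values, the outer ones standing in for the unknown lowest and highest of the 6 libraries that n counts. The threshold for a call was an adjusted p of 0.05 in a moderated trimmed-mean test (limma, Benjamini-Hochberg over all genes of a table, two-sided). The step between low values put the depth at 3.75 to 10.5 megareads (M reads) a library (median 6.92), the shallowest being CL KO replicate 6. At that depth Cirbp had about 132 to 417 reads in a library and Rbm3 about 566 to 1866, so counting alone gave a log2 SD of 0.07 to 0.13 for Cirbp and 0.03 to 0.06 for Rbm3. These limits cover counting error only. As a check of the labels, Cdr1as stood at 2610 to 3801 CPM in WT libraries and at no more than 0.166 CPM in KO libraries. All 14 neuron markers were listed, and of 13 neutrophil and monocyte markers only Csf3r was in the tables of PI and CL, at 1.31 to 2.43 CPM. The summed level of the neuron list was 9344 to 9933 CPM in CL WT and 8101 to 8924 in PI WT, and in KO it was 9216 to 9615 CPM in CL and 7940 to 8700 in PI. That of the 10 microglia markers was 188 to 199 CPM in CL WT and 208 to 235 in PI WT, and in KO it was 197 to 218 CPM in CL and 231 to 277 in PI. Their part in the results for Cirbp and Rbm3 was not tested, and in bulk tissue fewer cells of a type cannot be told apart from less RNA per cell.

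In WT cortex, the levels of Cirbp and Rbm3 in PI and CL samples overlapped, and neither gene was called. The trimmed-mean test of PI against CL treated the libraries as independent and made no use of the animal they share. Cirbp had deposited log2 CPM of 5.08, 5.39 and 5.40 (lowest, median and highest of 6) in CL WT and of 5.27, 5.45 and 5.49 in PI WT. The low values of CL WT were those of replicates 4 and 5, tied at 33.8 CPM, while the other 4 deposited values lay within 41.7 to 42.2 CPM. By deposited values, Cirbp was higher in the PI than in the CL sample in 5 of 6 animals, by a median log2 difference of 0.10 and a range from -0.11 to 0.39. The log2 fold change of PI over CL was 0.12 ± 0.13 (SE, n = 6 per group), with a 95% interval of -0.16 to 0.39 and an adjusted p of 0.646.

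Rbm3 had deposited log2 CPM of 7.45, 7.50 and 7.54 in CL WT and of 7.50, 7.56 and 7.64 in PI WT. The deposited ranges overlapped between 7.50 and 7.54, and 4 deposited PI values stood above the highest deposited CL value. The deposited Rbm3 value was also higher in PI in 5 of 6 animals, and the exception was animal 5 for Rbm3 and animal 1 for Cirbp. The log2 fold change was 0.07 ± 0.06 (SE, n = 6 per group), with a 95% interval of -0.07 to 0.20 and an adjusted p of 0.568. In this comparison 1537 of 14489 genes were called (10.6%; 6614 by limma on the deposited values with the animal as a block), 32.8% of genes had deposited values that did not overlap between the groups, and 51.6% of genes had a smaller p than Rbm3 and 58.5% a smaller p than Cirbp.

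**Figure D1:**
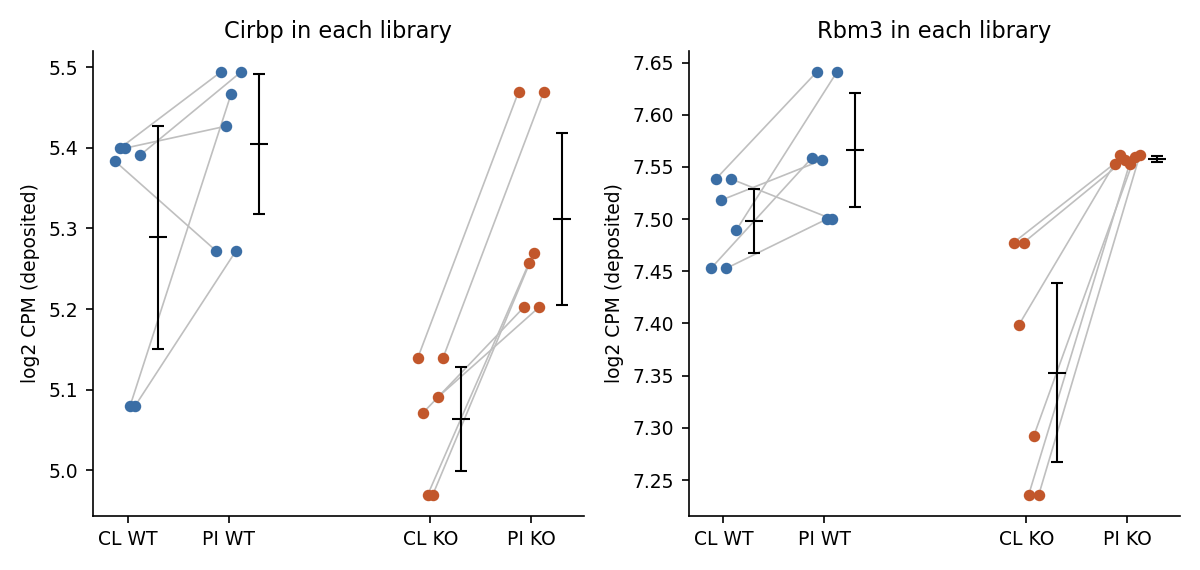
Deposited log2 CPM of Cirbp (left) and Rbm3 (right) in each of the 24 libraries, with lines joining the CL and PI sample of an animal and black marks for the trimmed mean ± SE. The axes do not start at 0 and differ between panels. In KO all 6 lines rise for both genes, from 4.97 to 5.14 up to 5.20 to 5.47 for Cirbp.

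In KO cortex, the deposited values of both genes were higher in PI than in CL in all 6 animals, with no overlap. Neither gene passed the trimmed-mean test over all genes, which here too took CL and PI libraries as independent. Since the lowest PI and the highest CL library are drawn in, whether those libraries overlap is not known. Cirbp had deposited log2 CPM of 4.97, 5.08 and 5.14 in CL KO and of 5.20, 5.26 and 5.47 in PI KO. The high PI libraries were replicates 1 and 6, tied at 44.3 CPM, and these animals also had the highest CL values, tied at 35.2 CPM. The deposited difference between the 2 samples of an animal ran from 0.11 to 0.33 (median 0.29). The log2 fold change was 0.25 ± 0.11 (SE, n = 6 per group), a 1.19-fold difference with a 95% interval of 1.01 to 1.39, and its adjusted p was 0.170 with limma's moderated test of trimmed means.

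Rbm3 had deposited log2 CPM of 7.24, 7.35 and 7.48 in CL KO and of 7.55, 7.56 and 7.56 in PI KO. The deposited CL values were spread out, with replicates 4 and 6 lowest at 150.8 CPM and replicates 1 and 3 highest at 178 CPM. All deposited PI values lay within 187.8 to 188.9 CPM, but the lowest and highest PI library are drawn in and their own levels are not known. The deposited difference within an animal ran from 0.08 to 0.33 (median 0.22) and was smallest in animals 1 and 3, whose CL values were highest. The log2 fold change was 0.20 ± 0.08 (SE, n = 6 per group), a 1.15-fold difference with a 95% interval of 1.03 to 1.29, and its adjusted p was 0.109 with the moderated test of trimmed means.

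In KO, 1440 of 14338 genes were called (10%; 6759 by limma on the deposited values with the animal as a block), and 34.3% of all genes had deposited PI and CL values that did not overlap, 17.1% with PI higher. Absence of overlap was thus common among deposited values. When the animal was entered as a block in limma on the deposited values, the adjusted p became 0.000907 for Cirbp and 0.00214 for Rbm3, on a spread that the tied values make too small. Without the block the same deposited values gave 0.00201 and 0.00112. The calls for the 2 genes in KO therefore turned on whether the tied values were taken as they stand.

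The difference between the PI and CL response of the genotypes was tested directly. The change in KO exceeded that in WT by 0.13 ± 0.18 on the log2 scale for Cirbp (95% interval -0.24 to 0.50) and by 0.14 ± 0.10 for Rbm3 (-0.07 to 0.35), with an adjusted p of 0.992 for both in the moderated test. That test treats CL and PI libraries as independent and makes no use of the animal they share. Comparing per-animal differences of the deposited values between genotypes by limma gave an adjusted p of 0.271 for Cirbp and 0.127 for Rbm3. None of 14211 genes was called in this comparison (0%) by the trimmed-mean test, 646 had an unadjusted p under 0.05, and limma on the deposited values called 1940. A genotype difference in the response of Cirbp or Rbm3 was not detectable, and the intervals allow differences of up to 0.50 and 0.35.

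**Figure D2:**
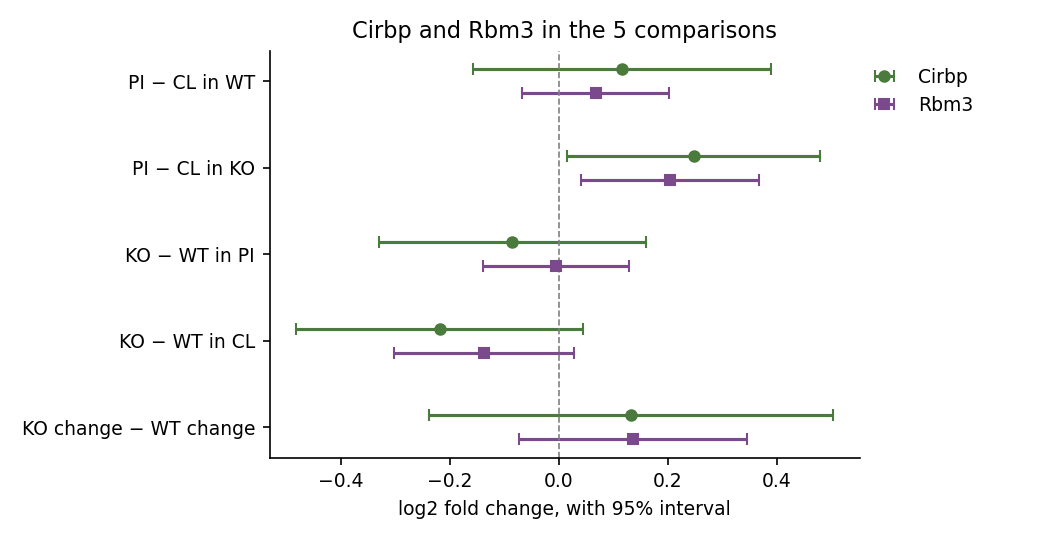
Log2 fold change of Cirbp (circles) and Rbm3 (squares) in the 5 comparisons, with bars for the 95% interval of the trimmed-mean test; the last row is the KO change minus the WT change. The intervals of PI minus CL in KO lie above 0, from 0.02 to 0.48 and from 0.04 to 0.37, while no adjusted p was under 0.05.

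Between genotypes, neither gene was called in PI or in CL cortex. In the table of PI samples, Cirbp had deposited log2 CPM of 5.30, 5.47 and 5.52 in WT and of 5.24, 5.30 and 5.50 in KO. By deposited values 3 of the KO libraries stood below every WT library, and the other 3 overlapped with them. The second-lowest WT value solved back was 5.25, below KO replicate 3 (5.29), so that library was not below every WT library. The KO minus WT log2 fold change was -0.08 ± 0.11 (SE, n = 6 per group; 95% interval -0.33 to 0.16; adjusted p 0.936). Rbm3 had deposited log2 CPM of 7.53, 7.59 and 7.67 in PI WT and of 7.58, 7.59 and 7.60 in PI KO. Every deposited KO value thus fell inside the deposited WT range. Its fold change of KO over WT was 0.997, with a 95% interval of 0.909 to 1.09 and an adjusted p of 0.995. In PI cortex 3 of 14452 genes were called (0.0208%), and deposited values of the genotypes did not overlap in 14.1% of genes.

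In CL cortex both genes had lower means in KO. Cirbp had deposited log2 CPM of 5.04, 5.35 and 5.37 in CL WT and of 4.94, 5.06 and 5.11 in CL KO. The deposited KO values lay below those of 4 WT libraries, and the low WT replicates 4 and 5 fell among them. The log2 fold change was -0.22 ± 0.12 (SE, n = 6 per group; 95% interval -0.48 to 0.05; adjusted p 0.885). Rbm3 had log2 CPM of 7.42, 7.47 and 7.50 in CL WT and of 7.21, 7.32 and 7.45 in CL KO. Replicates 1 and 3 of KO, tied at 175 CPM, lay within the deposited WT range, and the other 4 deposited KO values lay below it. The log2 fold change was -0.14 ± 0.08 (SE, n = 6 per group; 95% interval -0.30 to 0.03; adjusted p 0.885). Limma on the deposited values called both genes lower in CL KO, with an adjusted p of 0.0355 for Cirbp and 0.0470 for Rbm3, again on a spread that the tied values make too small. In CL cortex 4 of 14323 genes were called (0.0279%), and deposited values did not overlap in 13.5% of genes. The CL KO libraries enter this comparison and that of PI with CL in KO, so the lower CL level and the higher PI over CL ratio in KO are not separate observations.

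By the trimmed mean in the tables of PI and CL, the order of the groups was the same for both genes. For Cirbp it ran from PI WT (log2 CPM 5.40) over PI KO (5.31) and CL WT (5.29) to CL KO (5.06), and for Rbm3 from PI WT (7.57) over PI KO (7.56) and CL WT (7.50) to CL KO (7.35). The neighbours PI WT and PI KO, and CL WT and CL KO, were not called apart by the trimmed-mean test, while limma on the deposited values called CL WT and CL KO apart for both genes. PI KO and CL WT were never in one table and were not tested. Between the 2 tables that hold a library its values were shifted by 0.03 to 0.04 in the median gene, so levels from separate tables are only roughly on one scale. For Cirbp the gap between PI KO (5.31) and CL WT (5.29) was smaller than that shift. For Rbm3 the gap between PI WT (7.57) and PI KO (7.56) was smaller too. The shared order is therefore not established.

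Rbm3 was the more abundant of the genes. Per kilobase of exon (2604 bases in Cirbp and 4698 in Rbm3, over all transcripts), Cirbp stood at 16.3 CPM and Rbm3 at 40.3 CPM in PI WT. The ratio of Rbm3 to Cirbp per kilobase was 2.48 to 2.71 over the groups and tables, and 2.12 to 2.31 when each gene's reference transcript was taken as its length.

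The inner values of Rbm3 in PI KO lay close together, which was singled out after the values were seen, and the lowest and highest library are not part of it. The 4 recovered log2 values in the table of PI and CL spanned 0.00968, less than the counting SD of a single library (0.04 to 0.05). None of the 924 other genes within 0.5 of its log2 level had a narrower span in that group, and their median span was 0.143. In the table of KO and WT the span was 0.0136, and 1 of 927 such genes was narrower. In CL KO the span of Rbm3 was 0.287, wider than in 96.4% of genes of its level. Cirbp had a wide span in CL WT, 0.423 against a median of 0.167, because replicates 4 and 5 stood low.

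Within a group, Cirbp and Rbm3 were compared by an exact permutation test over the 6 libraries, with p adjusted over the 4 groups, and no correlation passed. Pearson's r was 0.08 in CL WT, 0.57 in PI WT, -0.03 in CL KO and -0.22 in PI KO, and the lowest adjusted p was 0.948 in this exact test. Raw p values by the exact permutation test were 0.711, 0.267, 0.956 and 0.578. Spearman's rho was 0.35, 0.62, -0.03 and -0.35, with raw exact p of 0.467, 0.244, 1 and 0.467 and adjusted values of at least 0.622. Without the 2 libraries farthest from the median of Cirbp, r was 0.97, 0.64, -0.03 and -0.94 over 4 libraries, so its size in CL WT and PI KO changed with those libraries. Tied values and a shared library total limit these figures.

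**Figure D3:**
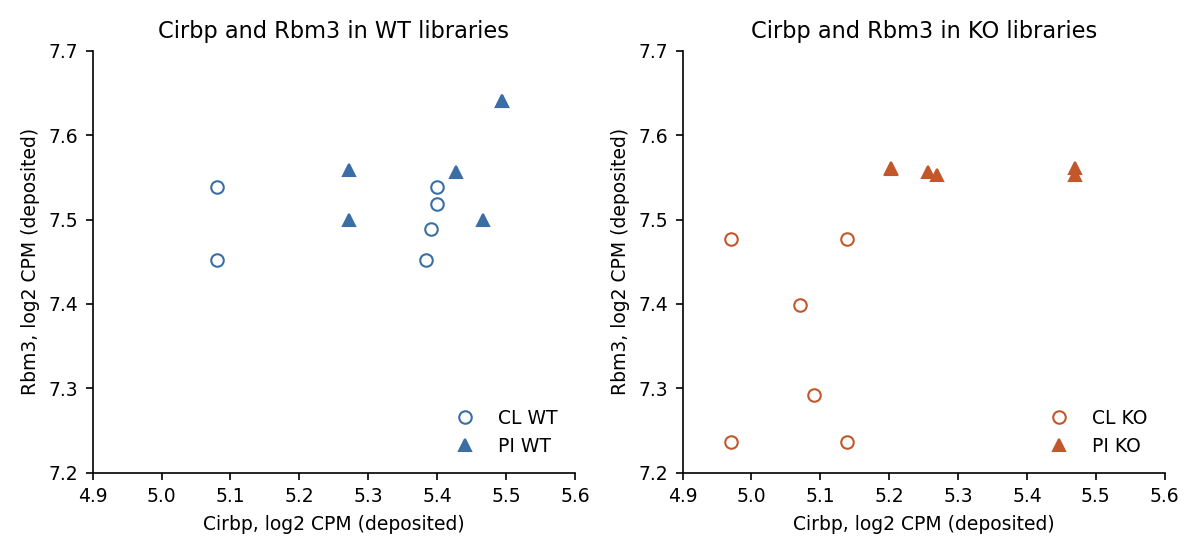
Rbm3 against Cirbp, deposited log2 CPM, in WT (left) and KO (right) libraries, with open circles for CL and filled triangles for PI; tied libraries can lie on top of each other. In KO the deposited PI values stand apart at higher levels of both genes, at almost 1 level of Rbm3 (7.55 to 7.56), while in WT the marks overlap.

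The genes whose profile over the libraries was most like that of Cirbp were Melk, Nmnat3, Gm28578, Cep83os and Emc1, with a mean r of 0.904 to 0.807 over the 12 WT and the 12 KO libraries. Those most like Rbm3 were Pyurf, Commd8, Thap12, Cutc and Gtf2f2, with a mean r of 0.939 to 0.850. The members were not each other's closest match. Rbm3 ranked 1055 of 14210 genes by likeness to Cirbp (mean r 0.549), and Cirbp ranked 1757 by likeness to Rbm3. Libraries of CL and PI enter each r together, so a shared difference between them adds to it. Tied values limit each r as well. Melk, Nmnat3 and Gm28578 were low in CL WT, at log2 CPM of 0.44, 0.52 and 0.99. None of these 10 genes was called between PI and CL in WT or KO, beside 10.6% and 10% of all genes. They were picked for likeness to Cirbp or Rbm3 over the same CL and PI libraries. Neither Cirbp nor Rbm3 was called by the trimmed-mean test, so the absence of calls is not a separate observation.

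Genes known to act upstream of the members were read from a list of regulators. Of 9 listed regulators 7 were in the tables of PI and CL, and Ntrk2 was the only one called, lower in PI in both genotypes, beside 10.6% of all genes called in WT and 10% in KO. Ntrk2, which encodes the receptor TrkB reported to act upstream of Rbm3 in cooled neurons, had a log2 fold change of -0.31 ± 0.05 in WT (adjusted p 0.000967 by the moderated test) and of -0.25 ± 0.06 in KO (adjusted p 0.0152). Hnrnph1, a splicing factor that controls the decay exon of Rbm3, had a fold of 0.997 in WT and 1.01 in KO, and Sp1, the factor of the cold response element, of 0.955 and 0.988; neither was called. Clk1, a temperature-sensitive kinase of splicing factors, had a log2 fold change of -0.22 in WT (adjusted p 0.0540) and -0.10 in KO (adjusted p 0.530), and with each group centred on its median gene it too was called in WT, while Hnrnph1 changed sign in KO. The median of the list was -0.07 in each genotype, beside 0.01 in WT and -0.000678 in KO over all genes. The ion channels Trpv3 and Trpv4 were not in the tables.

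Downstream, 4 transcripts proposed as bound or raised by Cirbp or Rbm3 were listed. None was called in WT (10.6% of all genes were), and 1 was called in KO (10% of all genes were), Rtn3, a gene of the endoplasmic reticulum proposed as an Rbm3 target at synapses, which fell with a log2 fold change of -0.22 ± 0.05 (adjusted p 0.0211). In WT Rtn3 had -0.14 (adjusted p 0.397). Txn1, encoding thioredoxin, had 0.28 in WT (adjusted p 0.0671) and 0.32 in KO (adjusted p 0.122), and Clock had -0.10 and -0.01. Among 15 clock genes, 4 fell in PI in WT (Hlf, Rorb, Arntl and Npas2) and 3 in KO (Hlf, Npas2 and Nr1d1), and none rose, where 5.4% of all genes were called lower in WT and 4.94% in KO; with centred groups 6 and 4 fell. The largest of these changes was in Hlf, by -0.82 in WT and -0.86 in KO on the log2 scale. Of the receptors for released Cirbp, Tlr4 rose in PI in KO, with a log2 fold change of 0.66 ± 0.18 (adjusted p 0.0332), and had 0.62 ± 0.21 in WT (adjusted p 0.0805), and its change did not differ detectably between genotypes (0.03 ± 0.27, adjusted p 0.998). Ly96, the co-receptor, and Trem1 were not in these tables.

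Heat-inducible genes answer temperature in the opposite direction to Cirbp and Rbm3. In WT 8 of 22 rose in PI and none fell, with a median log2 fold change of 0.21, where 5.2% of all genes were called higher (754, and 783 lower; 636 and 1053 with each group centred on its median gene). In KO 9 of 22 rose and none fell, with a median of 0.31, where 5.11% of all genes were called higher (732, and 708 lower; 589 and 1017 with centred groups). The inducible chaperone Hspa1b rose by 2.59 ± 0.35 in WT and 3.20 ± 0.54 in KO (log2, ± SE). Hspa1a and Hspa1b are near-identical copies between which reads can be split, so their separate values are uncertain. The small heat shock protein Hspb1 rose by 2.57 ± 0.31 and 2.55 ± 0.41 from a low level in CL (log2 CPM -0.14 in WT and 0.31 in KO). It was not listed in the table of CL samples alone, so it may be in the tables of PI and CL only through its PI level; of the 21 genes that every table listed, 7 rose in WT and 8 in KO. The co-chaperone Hsph1 rose by 0.79 ± 0.14 and 1.03 ± 0.27. The constitutive Hspa8 (0.03 and 0.21) and the heat shock factor Hsf1 (0.02 and -0.04) were not called. With centred groups 6 and 8 genes of the list were called, and the value of Hspa8 and of Hsf1 in WT changed sign. No heat-inducible gene was called between genotypes in PI or CL, or in the test of the difference in response. Of all genes, 0.0208%, 0.0279% and 0% were called there, so the absence of calls is not particular to the list. The estimated PI over CL ratios of Cirbp and Rbm3 were above 1, like those of the called heat-inducible genes, but neither gene was called. In WT their log2 fold changes were 0.12 ± 0.13 and 0.07 ± 0.06 (± SE). The WT intervals given above include a ratio of 1, so the side is not settled there. In KO the log2 fold changes were 0.25 ± 0.11 and 0.20 ± 0.08. A part of temperature in these values was not tested.

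**Figure D4:**
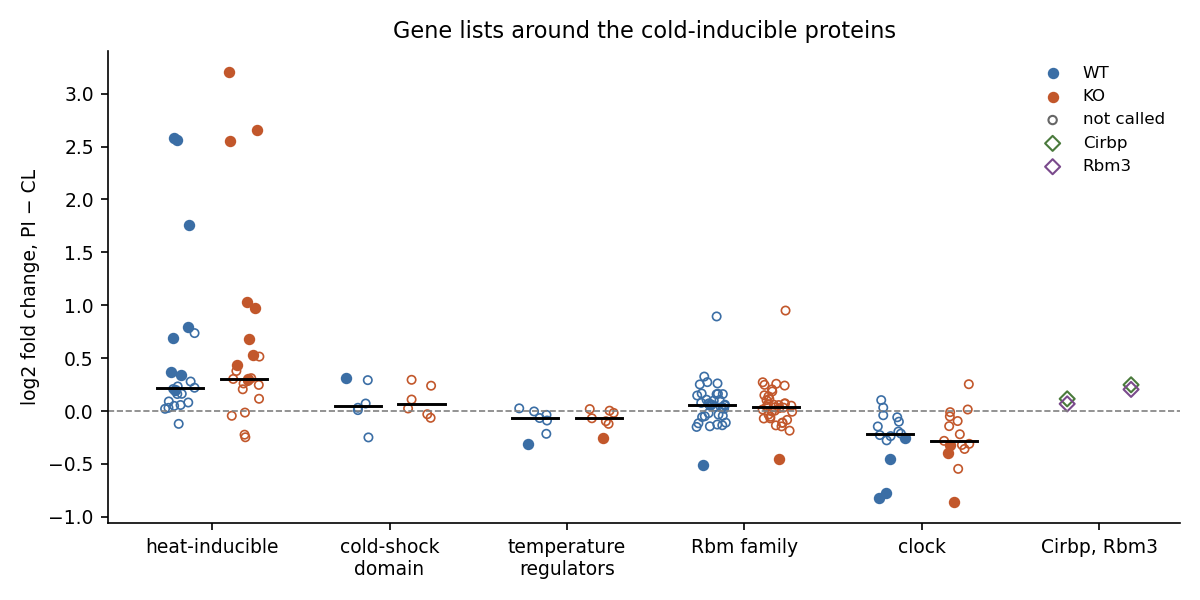
Log2 fold change of PI over CL for each listed gene in WT (blue) and KO (orange); filled points were called, open points were not, and black bars are list medians. Heat-inducible genes reach 2.59 in WT and 3.20 in KO, while Cirbp and Rbm3, at the right, lie between 0.07 and 0.25.

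Few related RNA-binding genes were called. Of 37 genes named Rbm, Rbm3 included, only Rbm24, a splicing regulator of muscle, was called between PI and CL (with centred groups also Rbm5 in KO, lower), and it fell in PI by 0.51 in WT (SE 0.09, adjusted p 0.00302) and 0.46 in KO (SE 0.10, adjusted p 0.0149) on the log2 scale. That is 1 of 37 in each genotype, beside 10.6% and 10% of all genes. Log2 fold changes of the family reached 0.89 in WT and 0.95 in KO, both in Rbm47, a low-expressed member that was not called (adjusted p 0.0777 and 0.213). Like Hspb1, Rbm47 was not listed in the table of CL samples alone, so it may be listed here only through its PI level. The median of the family was 0.06 in WT and 0.04 in KO. Of 8 cold-shock-domain genes, the family related to the cold shock proteins of bacteria, 6 were listed. Ybx1, a messenger RNA packaging protein, rose in PI in WT by 0.31 (SE 0.07, adjusted p 0.0114) and had 0.30 in KO (SE 0.12, adjusted p 0.136), with a difference between genotypes of -0.02 ± 0.14. No gene of the regulator, target, clock, Rbm or cold-shock-domain lists was called between KO and WT, beside 0.0208% of all genes in PI and 0.0279% in CL.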

How the data were processed

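Cortex RNA of 24 libraries was analysed. Per the labels' protocols, it came from TRIzol extraction, DNase treatment, removal of ribosomal RNA with RiboCop and library preparation with the CORALL kit. The authors deposited log2 CPM values in 4 tables (per the file headers), 1 for each pair of groups; mm10 comes from the submitters' processing notes. Aligner, counting, filters and scaling are not given in the sources used here, and no label records the tying of values at the quartiles. There were 0 unused columns.

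The inner 4 values of each group of 6 were solved from the quartile rule, and the lowest and highest could not be. Trimmed means of 4 values, with Winsorized sums of squares and 6 degrees of freedom (12 for 4 groups), went through limma 3.58.1's empirical Bayes step with a trend in R 4.3.3. The script was tested on simulated data. A count test was not run because most values are not reads. Low values were whole reads within 0.03 read for 82.8% to 91.6% of values per library. 

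CL and PI of a number are paired by animal in the labels, and the trimmed-mean test made no use of this pairing. Deviations of such pairs from their group means correlated at -0.17 to 0.31 in WT and -0.01 to 0.17 in KO. For CL and PI libraries of unlike number the ranges were -0.32 to 0.21 and -0.23 to 0.19. Same-numbered pairs exceeded 0.1 in 5 cases in WT and 2 in KO. In WT 4 CL and 4 PI libraries correlated most with their own number, and in KO 1 CL and 2 PI libraries did. The ranges overlap, so the pairing rests on the labels and not on these correlations.

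The members and lists were chosen with earlier results of these data known. Named are Cirbp and Rbm3, the 5 genes most like each (at least 1 CPM), and of each list up to 5 called genes or the one with the smallest p. Hnrnph1, Sp1, Clk1, Clock, Txn1, Rbm5, Rbm47, Hspa8 and Hsf1 were also named after their values were seen. Besides the lists in the report, markers of astrocytes, oligodendrocytes, endothelium, choroid plexus and striatum were counted. Over all genes, in PI against CL, 5.2% were called higher and 5.4% lower in WT, and 5.11% higher and 4.94% lower in KO. Of these lists, in PI against CL, 2 of 10 astrocyte markers rose and 3 fell in WT and 2 rose and 1 fell in KO. Of 10 oligodendrocyte markers 2 fell in WT and 0 in KO. Of 10 endothelial markers 0 were called in WT and 1 fell in KO. Of 3 listed choroid plexus markers 1 fell in each genotype. Of 7 listed striatum markers 1 rose and 2 fell in WT and 1 fell in KO. Of 14 neuron markers 4 fell in WT, and 3 fell and 1 rose in KO. Of 10 microglia markers 5 rose and 2 fell in WT, and 5 rose and 1 fell in KO.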

Additional observations from a re-analysis of the deposited data

How the results depend on the processing

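For Cirbp and Rbm3 in the 5 comparisons, all 40 values on recovered data (no trend, at least 1 CPM, a pseudocount of 1, centred groups) kept their direction and stayed uncalled. Limma on the deposited values, whose spread is too small, called both genes in KO for PI against CL (log2 fold changes 0.25 and 0.20) and in CL for KO against WT (-0.22 and -0.14, adjusted p 0.0355 and 0.0470). With the replicate block these 4 fold changes are the same (0.25, 0.20, -0.22 and -0.14) and stayed called, and adjusted p in CL was 0.0295 and 0.0488. The block changed no other call of the 2 genes. KO and WT animals of the same number are different animals, so in KO against WT the block joins libraries by number alone. Deviations of same-numbered libraries correlated at -0.14 to 0.15 in PI and -0.23 to 0.12 in CL. For libraries of unlike number the ranges were -0.30 to 0.30 and -0.26 to 0.19. Counts of called genes in PI against CL in WT, PI against CL in KO, KO against WT in PI, KO against WT in CL and the interaction were 6459, 6666, 2388, 2311 and 1940 by limma on deposited values, and 6614, 6759, 1800, 1868 and 1866 with the replicate block. Without a trend of the prior variance, PI against CL gave 1015 calls in WT and 739 in KO. Depth limits Cirbp more than Rbm3, and the lowest and highest library of a group are unknown for every gene. Counting heat-inducible genes only where listed in all 4 tables was added after seeing the data.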
